A study of Mus musculus with 6 samples.

Results

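Integrin and laminin subunit genes were followed in whole skin of mouse embryos at embryonic day 17.5, with 3 libraries from Tie1 knockout skin and 3 from control skin, all on the C57BL/6N background. Of the 19131 genes listed in each library, 37 have a symbol that names an integrin alpha or beta chain or a laminin alpha, beta or gamma chain. The symbol alone decided which genes are members, a choice made with earlier results of these data known. They comprise 26 integrin and 11 laminin genes. With 10 or more estimated reads in 3 or more libraries as the minimum, 36 qualified, and those 36 also entered the test over all genes. The remaining gene, Itgad, encodes the alpha chain of a leukocyte integrin. It had 0, 2 and 0 reads in the knockout libraries and 2.14, 1.13 and 3 reads in the control libraries, at or under a floor of 3 reads (0.147 to 0.155 CPM, counts scaled to the size of the library), and no fold is given for it. Both groups carry ECD in their sample names, an abbreviation the labels leave undefined. The deleted part of Tie1, the cells that lost it, the region of the body and the litters are not given in the labels, and nothing there says that the libraries of a group came from different embryos. The p-values below thus describe the spread between these 6 libraries, which may be technical.

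Integrins are receptors of cell adhesion that work as pairs of 1 alpha and 1 beta chain, and the pair decides which matrix protein or cell surface is bound. Laminins are trimers of an alpha, a beta and a gamma chain that build the sheet of basement membrane under epithelia and around vessels, muscle fibres and nerves. In skin, the pair of Itga6 and Itgb4 anchors basal keratinocytes to a laminin that holds the chains of Lama3 and Lamb3. The laminins of vessel walls carry the chains encoded by Lama4 and Lama5.

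The libraries held 19826856 to 20591164 estimated reads, of which integrin genes took 0.140 to 0.163% and laminin genes 0.141 to 0.188%. Tie1 reads numbered 84, 53 and 46 against 1187, 1023 and 1215, so no library went against its label (log2 fold change −4.20, edgeR adjusted p = 0.00387, and up to 0.0559 over 17 alternatives, without knockout 2). Markers of skin were present, with summed CPM of 5157 to 9075 for 6 basal keratinocyte genes and 22363 to 27148 for 7 fibroblast genes. Knockout 1 and control 1 stood apart by low hair follicle markers (summed CPM of 597 and 622, against 1034 to 1340 in the other 4 libraries), and results that rest on these libraries are given with and without them. Both groups mixed libraries with and without Y-linked transcripts, whose summed CPM was 140.0 to 162 in knockout 2, knockout 3 and control 3 and 2.69 to 3.35 in the other 3. Hox genes of the posterior body varied as well (summed CPM of 59.7 to 74.6 in knockout and 37.7 to 72.2 in control). In whole tissue, fewer cells of a type and less RNA per cell cannot be told apart.

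No integrin or laminin gene passed edgeR's test over all genes between knockout and control skin, while DESeq2 called Itga1 among 210 genes of the whole table. The clearest difference was in Itga1, the alpha chain of a collagen receptor, which stood 1.60-fold above control (95% interval 1.31 to 1.94). Itgam, the alpha chain of the myeloid receptor known as Mac-1 or CD11b, and Itga11, another collagen receptor chain, were 1.42-fold and 1.30-fold above control and were called by none of the 3 tools run. The anchoring set of the epidermis, Itga6, Itgb4, Lama3 and Lamb3, differed more between libraries of one genotype than between the genotype means.

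By edgeR's quasi-likelihood test with genotype as the only term, 0 of 25 integrin genes and 0 of 11 laminin genes had a Benjamini-Hochberg adjusted p under 0.05, the threshold for a call, where 0.160% of the 15035 genes tested were called. An unadjusted p under 0.05 was reached by 3 integrin genes, all higher in the knockout (4.08% of all genes were higher and 3.35% lower by this measure), and by 0 laminin genes. DESeq2 called 1 integrin gene, Itga1, and 0 laminin genes, where it called 210 of the 15035 genes tested. With limma-voom 0 members were called, where 15 of all genes were. The 3 knockout libraries lay wholly above the 3 control libraries in 4 integrin and 2 laminin genes (Itga1, Itga8, Itga11, Itgam, Lama1 and Lama4) and wholly below in 0, where 7.02% of all genes were separated upward and 6.78% downward. The median log2 fold change was 0.066 over the integrins and 0.065 over the laminins, beside 0.0038 over all genes tested. Of the 36 members 28 had a positive log2 fold change, a direction that 51.2% of all genes shared. The laminin median was negative in 3 of 17 alternatives, at −0.083 with a score of Y-linked genes as covariate, −0.014 without knockout 3 and −0.057 without control 1, and reached 0.41 with the posterior Hox score as covariate.

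**Figure D1:**
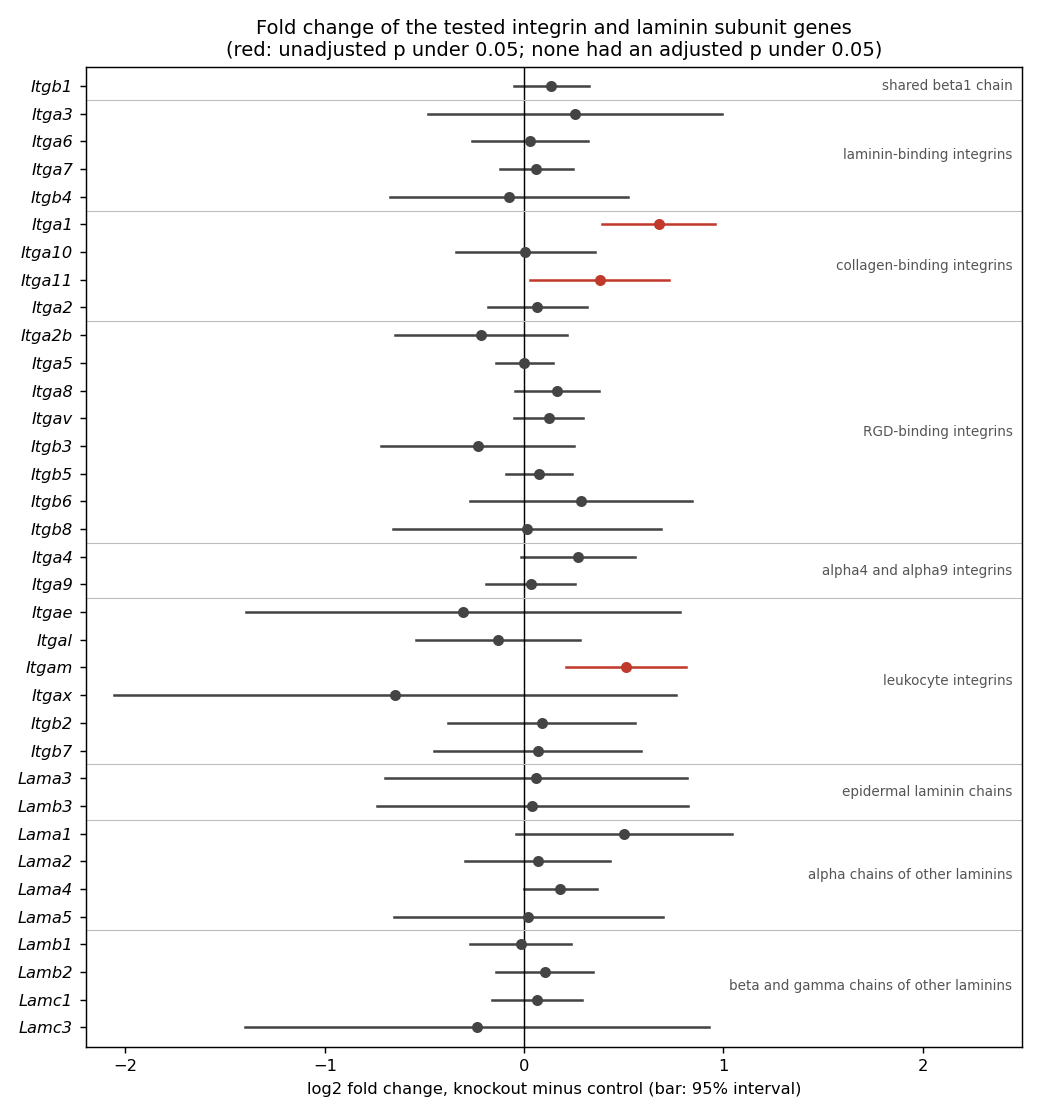
Log2 fold change, knockout minus control, of 35 tested genes (x axis) with its 95% interval (bars), ordered by role. Red marks the 3 genes with an unadjusted p under 0.05, Itga1, Itga11 and Itgam, whose intervals lie above 0, and the widest intervals belong to Itgax, Lamc3 and Itgae.

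Among the 4 alpha chains that pair with the beta chain of Itgb1 to bind collagens, 2 had an unadjusted p under 0.05 and none was called. Itga1 (gene 109700, chr13:114958079-115101964, GRCm38.p6) stood at 34.2, 38.6 and 32.1 CPM across knockout libraries 1 to 3, against 24.6, 18.7 and 22.5 CPM across the controls. Every knockout library was above every control library, and control 2 was the lowest of the 6. Its log2 fold change was 0.67 (SE 0.12, edgeR unadjusted p = 0.000708, adjusted p = 0.135). DESeq2 gave an adjusted p of 0.00103 and the fit without knockout 1 and control 1 gave a log2 fold change of 0.78 with an edgeR adjusted p of 0.0303, within a range of 0.00103 to 0.505 over 17 alternatives. The log2 fold change itself ran from 0.56 to 0.78 over these, with 0.67 beside the hair follicle score, 0.57 beside the posterior Hox score and 0.66 beside the Y-linked score. Itga11, known from fibroblasts, stood at 7.91, 6.52 and 6.46 CPM (knockout) and 5.20, 5.97 and 4.95 CPM (control). The groups again did not overlap, by the narrow margin between 6.46 and 5.97 CPM. For this chain the log2 fold change reached 0.38 (SE 0.15; edgeR, adjusted p = 0.624), and 0.25 without knockout 1 and control 1.

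Itga2, the collagen receptor chain of keratinocytes and platelets, is the neighbour of Itga1 on chromosome 13 (chr13:114833081-114932100). It stood at 13.4, 13.5 and 12.8 CPM in control 1 to 3 and 12.3, 14.7 and 14.5 CPM in knockout 1 to 3, with overlapping groups and a log2 fold change of 0.066 (95% interval −0.18 to 0.31). Itga10, best known from cartilage, stood at 5.72, 6.00 and 5.25 CPM across knockout libraries 1 to 3, against 4.98, 5.50 and 6.42 CPM across the controls, a log2 fold change of 0.0062 (−0.34 to 0.36). Whether Itga1 differs from these chains was not tested. Pelo, a gene for a ribosome rescue factor that lies within the span of Itga1, averaged 21.1 ± 1.03 CPM in knockout and 20.8 ± 0.611 CPM in control (SD, n = 3 each). No annotated exon of Pelo overlaps one of Itga1. Strand use in the counting is not known from the labels, so reads from exons that overlap on opposite strands cannot be told apart. Such overlaps were longest in Itga4 (up to 905 bases), Itgav (634), Lama2 (538), Lamc3 (382) and Itga8 (346). An unnamed gene model on the same strand shares up to 451 bases of exon with Itga1, and another up to 210 bases with Itgam.

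The sequence before the start of the gene is shown for Itga1 and Itgam, which had the smallest p-values of the family, and for Itga2, the neighbour of Itga1. Each run gives the 250 bases upstream of the start listed by RefSeq for GRCm38.p6, read 5′ to 3′ on the strand of the gene, and contains no exon annotated in GENCODE M21. The windows are chr13:115101965-115102214 (minus strand) for Itga1, chr13:114932101-114932350 (minus strand) for Itga2 and chr7:128062390-128062639 (plus strand) for Itgam. Capitals mark a match to 1 of 3 motifs searched on both strands: TGANTCA (AP-1), GGGCGG (GC box) and TATAAA (the TATA box).
Itga1: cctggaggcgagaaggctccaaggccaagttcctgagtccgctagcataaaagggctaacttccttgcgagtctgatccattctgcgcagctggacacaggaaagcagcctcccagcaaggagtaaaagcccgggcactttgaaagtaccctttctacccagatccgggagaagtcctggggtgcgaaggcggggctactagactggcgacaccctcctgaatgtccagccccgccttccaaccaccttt
Itga2: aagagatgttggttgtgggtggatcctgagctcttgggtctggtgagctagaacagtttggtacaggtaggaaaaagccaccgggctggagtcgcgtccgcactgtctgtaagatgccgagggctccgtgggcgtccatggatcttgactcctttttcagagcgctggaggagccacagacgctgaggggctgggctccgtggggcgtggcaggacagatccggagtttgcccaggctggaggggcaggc
Itgam: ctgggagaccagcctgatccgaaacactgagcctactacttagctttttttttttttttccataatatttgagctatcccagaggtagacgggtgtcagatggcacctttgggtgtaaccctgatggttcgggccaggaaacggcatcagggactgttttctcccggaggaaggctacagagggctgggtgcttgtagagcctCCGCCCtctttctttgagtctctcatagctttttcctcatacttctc
The Itga1 and Itga2 windows contained none of these letters, and the Itgam window held 1 GC box on the opposite strand, beginning 47 bases before the start. Over all 32851 RefSeq windows of this length 6.75% held TGANTCA, 32.7% GGGCGG and 12.4% TATAAA. The table had a window for 23 of the 37 members. Of their 26 windows 1 held TGANTCA (Itgax), 9 held GGGCGG and 0 TATAAA, and none of these motifs overlaps another in its letters.

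**Figure D2:**
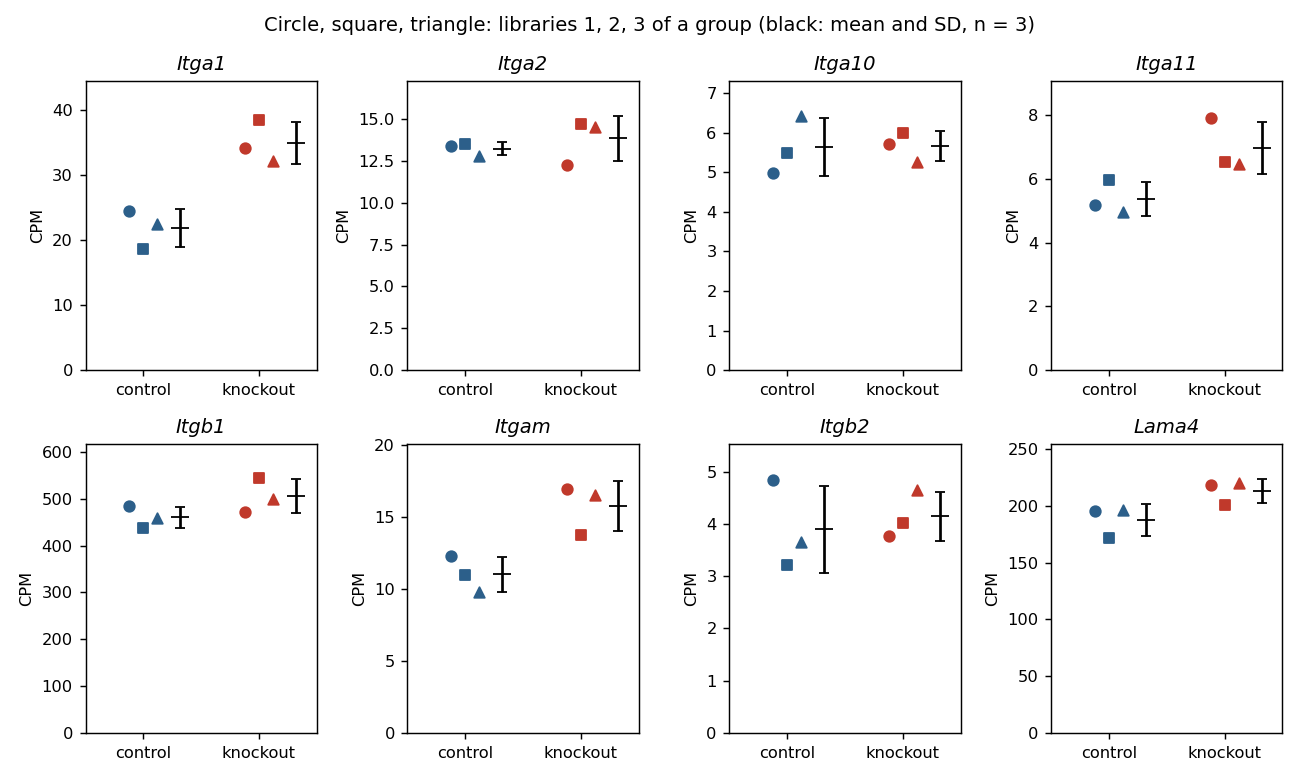
CPM (y axis, from 0) in each control (blue) and knockout (red) library for the 4 collagen receptor chains, Itgb1, Itgam with its partner Itgb2, and Lama4. The groups separate in Itga1, Itga11, Itgam and Lama4 and overlap in the other 4 genes.

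Mural cells of vessels are a known source of Itga1. Of their 7 markers 2 had an unadjusted p under 0.05 higher (Abcc9 and Rgs5, pericyte genes, at 0.46 and 0.41) and 1 lower (Myh11 of smooth muscle, at −0.82), with 0 called by edgeR and 1, Myh11, by DESeq2. Their summed level was 725 to 757 CPM in knockout and 656 to 709 CPM in control, and none of the 7 was at 0. For 9 endothelial markers (2 higher and 1 lower at an unadjusted p under 0.05) the sums were 552 to 655 and 523 to 614 CPM, for 7 Schwann cell markers (1 lower) 163 to 177 and 164 to 170.4 CPM, and for the 7 fibroblast markers (none) 23841 to 27148 and 22363 to 26925 CPM. The mural sums were separated between the groups and the other 3 overlapped. The part of these cells in the Itga1 values was not tested. Over all genes tested, 4.08% were higher and 3.35% lower at an unadjusted p under 0.05, and DESeq2 called 210 of 15035.

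Itgb1, the beta chain shared by collagen, laminin and fibronectin receptors, had the highest level of all members per length. It stood at 472, 543 and 500.2 CPM (knockout) and 483, 437 and 459.8 CPM (control). Control 1 lay above knockout 1, so the groups overlapped, and the log2 fold change was 0.14 (SE 0.080, 95% interval −0.053 to 0.32, edgeR adjusted p = 0.747). Divided by the length of all annotated exons, its control level was 113 ± 5.72 CPM per kilobase (SD, n = 3). Next in control skin on that scale were Lamc1 at 51.4 ± 3.59, Itgb5 at 42.0 ± 2.71, Lamb1 at 28.2 ± 3.14, Itga5 at 25.3 ± 0.743, Itga6 at 22.9 ± 2.93 and Lamb2 at 22.7 ± 3.07. Each of the first 4 was set apart from the next in the order over the control libraries, Itga5 and Itga6 overlapped, as did Itga6 and Lamb2, and in all 24 of 36 neighbouring pairs overlapped. Lama1, Itgae, Itgb8, Itgax and Itgad were the 5 lowest, at 0.0229 to 0.155 CPM per kilobase. Union exon lengths count rare long transcripts too, so this order is approximate. It places Itga1, with a union of 18599 bases, at 1.18 ± 0.161 beside Itga2b and Itga10.

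**Figure D3:**
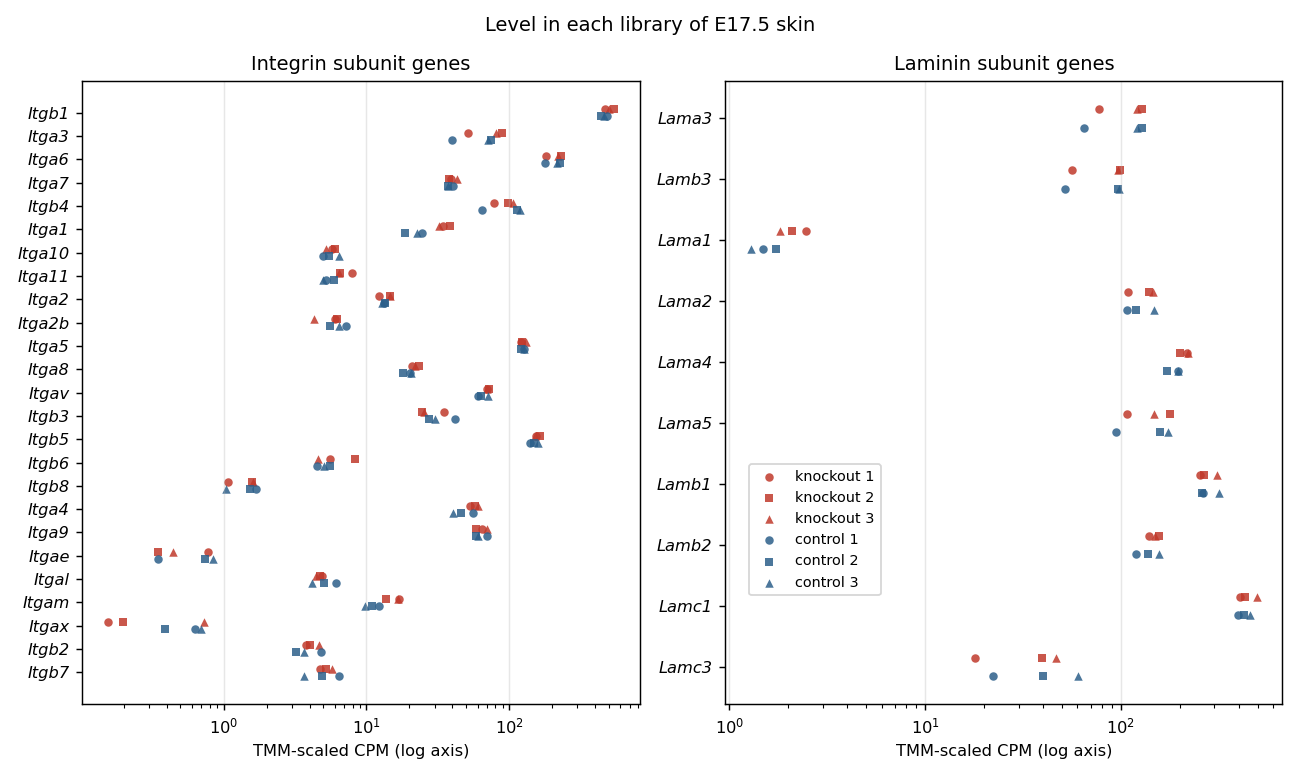
TMM-scaled CPM (log axis) of 25 tested integrin (left) and 10 laminin (right) genes, with 1 symbol per library, red for knockout and blue for control. Levels ran from under 1 CPM in Itgax and Itgae to the highest levels in Itgb1 and Lamc1, and circles (libraries 1) fell to the left of their groups in Lama3, Lamb3, Lama5, Itga3 and Itgb4.

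The 4 genes of laminin-binding integrins gave 0 calls and 0 unadjusted p under 0.05, with a median log2 fold change of 0.046. Itga6, which pairs with Itgb4 in hemidesmosomes and with Itgb1 elsewhere, stood at 177, 227 and 216 CPM in control 1 to 3 and 182, 229.6 and 221 CPM in knockout 1 to 3 (log2 fold change 0.029, 95% interval −0.26 to 0.32). Its partner Itgb4 stood at 78.6, 98.0 and 106 CPM across knockout libraries 1 to 3, against 64.3, 114 and 119 CPM across the controls (−0.074, −0.67 to 0.52). Both had their lowest value of each group in library 1. Itga3, the other laminin receptor chain of keratinocytes, stood at 51.2, 88.3 and 81.4 CPM (knockout) and 39.7, 74.2 and 71.2 CPM (control) (0.25, −0.48 to 0.99). Its groups overlapped, and library 1 was again the lowest of each. The Itga3 log2 fold change was 0.018 without control 1 and 0.68 beside the posterior Hox score. Itga7, the laminin receptor chain of muscle, stood at 39.4, 37.7 and 42.9 and 40.7, 37.0 and 37.4 CPM, with a log2 fold change of 0.062 (−0.12 to 0.25).

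Lama3 and Lamb3, which encode chains of the epidermal laminin, gave 0 calls and 0 unadjusted p under 0.05, and their values differed mainly between libraries. Lama3 stood at 64.5, 128 and 120.4 CPM in control 1 to 3 and 77.7, 128 and 121 CPM in knockout 1 to 3. Lamb3 stood at 56.4, 99.0 and 97.0 CPM across knockout libraries 1 to 3, against 51.6, 96.1 and 97.5 CPM across the controls. In both genes, knockout 1 and control 1 were the 2 lowest of the 6 libraries. The log2 fold changes were 0.058 (−0.70 to 0.82) and 0.042 (−0.74 to 0.82), intervals that hold changes of up to 1.76-fold and 1.77-fold. Within a library both chains kept their proportions more closely. The log2 ratio of Lama3 to Lamb3 was 0.46, 0.37 and 0.32 for knockout and 0.32, 0.42 and 0.30 for control libraries. For Itga6 to Itgb4 it was 1.21, 1.23 and 1.06 for knockout and 1.46, 0.99 and 0.86 for control libraries, with control 1 the highest. The mean ratios differed between the groups by 0.034 and 0.063, each less than the spread (SD) within either group.

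Library 1 was the lowest of both groups in 8 of 11 laminin genes and in 4 of 25 integrin genes, and in 19.3% of all genes tested. Itga3, Itga6, Itgb4, Lama3, Lama5 and Lamb3, all chains of epithelial basement membranes or their receptors, were among these 12, and are named after their values were seen. Itgav, Lama2, Lamb2, Lamc1 and Lamc3 were among the 12 too, so the trait was not limited to that set. Basal keratinocyte markers summed to 86.3, 104.9 and 112.8% of their mean over 6 libraries in the knockout and to 68.4, 120.3 and 107.3% in the control, and hair follicle markers to 60.6, 104.9 and 120.7% and to 63.1, 114.7 and 136.0%. None of the 6 and 17 markers was at 0. Lama3 stood at 72.9 and 60.5% of its mean in knockout 1 and control 1, and Lamc3 at 47.5 and 58.6%. The part of these cells in the laminin values was not tested. Without knockout 1 and control 1, Lamb3 had a log2 fold change of 0.018, still uncalled, while Itga3 at 0.22 and Itgb4 at −0.19 then had unadjusted p-values under 0.05 in opposite directions.

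**Figure D4:**
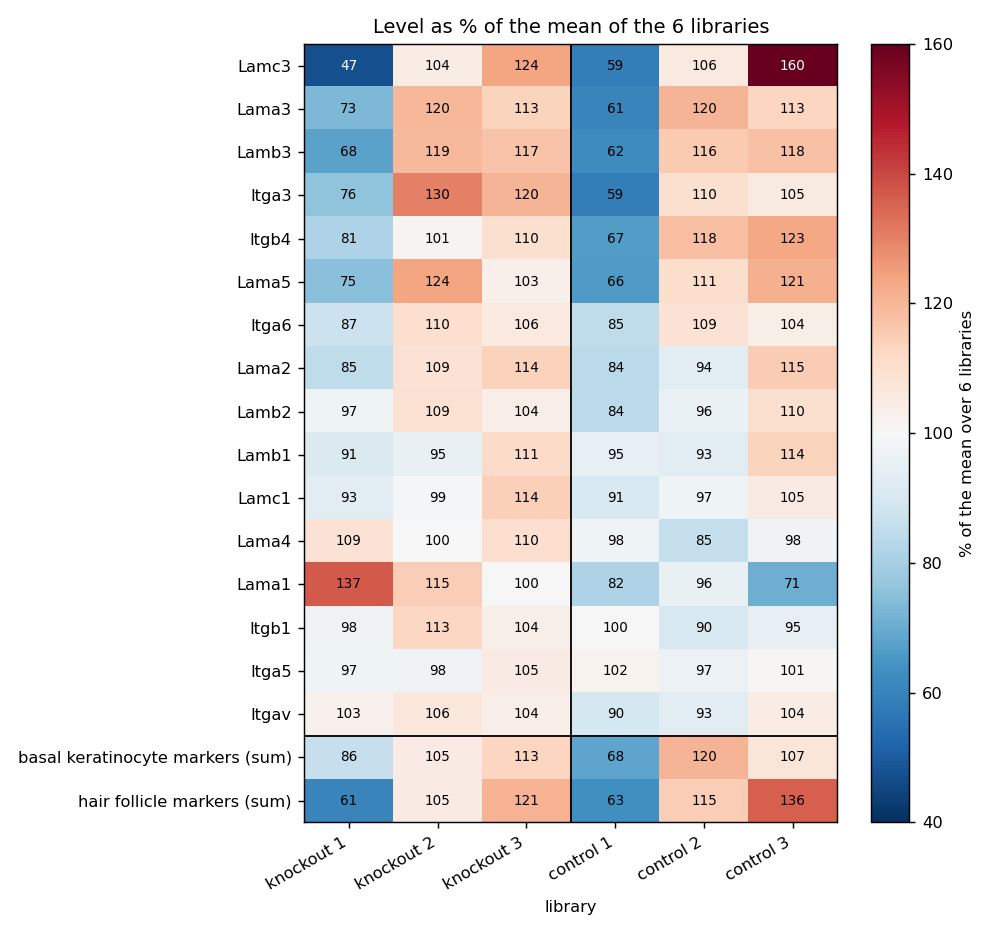
Level of 16 members and of 2 summed marker lists in each library, as a percentage of the mean over the 6 libraries (numbers and colour scale). The columns knockout 1 and control 1 are blue in the upper rows, from Lamc3 to Lama2, and near 100 in Itgb1 and Itga5.

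The alpha chains of the other laminins gave 0 calls among 4. Lama4, a chain of endothelial, muscle and fat cell basement membranes, stood at 218, 201 and 220.4 CPM (knockout) and 196, 171 and 196 CPM (control). The groups did not overlap, though knockout 2 exceeded control 3 only narrowly. Its log2 fold change was 0.18 (SE 0.078, 95% interval −0.0012 to 0.37, edgeR unadjusted p = 0.0511, adjusted p = 0.671). Fat cells carry this chain too, and all 5 of their tested markers had a negative log2 fold change. Of these, 4 had an unadjusted p under 0.05, where 3.35% of all genes were lower by this measure. DESeq2 called 3 of them, and 210 of the 15035 genes tested. In edgeR, Plin1 of the lipid droplet was called lower (log2 fold change −3.22, edgeR adjusted p = 0.0353). That call held in 8 of 17 alternatives, with adjusted p-values up to 0.203, and was lost whichever library was left out. Sums over all 7 markers were 318 to 339 CPM in knockout and 386 to 419 CPM in control. The highest levels in these sums were those of Cebpa (182 ± 21.5 CPM in knockout, 184 ± 23.5 CPM in control) and Fabp4 (125 ± 19.7 and 174 ± 22.6 CPM) (SD, n = 3 each). The part of fat cells in the Lama4 values was not tested. Lama1, a chain of early embryonic basement membranes, stood at 1.48, 1.73 and 1.28 CPM in control 1 to 3 and 2.47, 2.08 and 1.82 CPM in knockout 1 to 3. These are 26 to 48 reads per library, and the log2 fold change was 0.50 (−0.041 to 1.04, edgeR adjusted p = 0.685). Lama5, the broad chain of mature epithelial and vascular basement membranes, stood at 108, 178 and 148 CPM across knockout libraries 1 to 3, against 94.6, 159 and 174 CPM across the controls (0.020, −0.65 to 0.69). Lama2, the chain of muscle and peripheral nerve, stood at 108, 139 and 145 CPM (knockout) and 107, 119.9 and 147 CPM (control) (0.068, −0.29 to 0.43). The log2 ratio of Lama4 to Lama5 was 1.02, 0.17 and 0.57 for knockout and 1.05, 0.11 and 0.17 for control libraries, so libraries 1 had the most Lama4 for their Lama5 in both groups.

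The widely used beta and gamma chains were among the steadiest laminin genes. Lamc1 stood at 396, 424 and 455 CPM in control 1 to 3 and 405, 432 and 496 CPM in knockout 1 to 3 (0.065, 95% interval −0.16 to 0.29). Lamb1 stood at 254, 265 and 309 CPM across knockout libraries 1 to 3, against 264, 259 and 315 CPM across the controls (−0.017, −0.27 to 0.24). For Lamb2, the beta chain of synapses, kidney filters and vessel walls, the values were 139.6, 156 and 149 CPM (knockout) and 119.9, 138 and 157 CPM (control) (0.10, −0.14 to 0.35). All 3 overlapped between the groups, and these intervals hold no change above 1.27-fold or below 0.829-fold. Lamc3, a gamma chain of more restricted use, stood at 22.2, 40.2 and 60.6 CPM in control 1 to 3 and 18.0, 39.5 and 46.8 CPM in knockout 1 to 3, the widest range of any laminin gene (3.37-fold from lowest to highest library). Its log2 fold change was −0.24 (−1.40 to 0.93). The log2 ratio of Lamb1 to Lamb2 was 0.86, 0.76 and 1.05 for knockout and 1.14, 0.91 and 1.0 for control libraries, with overlapping groups.

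Among the 8 genes of integrins that recognise the RGD sequence of fibronectin, vitronectin and related ligands, 0 were called and 0 had an unadjusted p under 0.05. Itga5, the fibronectin receptor chain, was the steadiest member of all, at 121, 122 and 131 CPM across knockout libraries 1 to 3, against 128, 121 and 126 CPM across the controls. Its log2 fold change of 0.0016 has a 95% interval of −0.14 to 0.14, or 0.907-fold to 1.10-fold. Itgav, the alpha chain shared by several vitronectin and TGF-beta activating receptors, stood at 69.4, 71.8 and 70.4 CPM (knockout) and 60.6, 63.0 and 70.7 CPM (control) (0.12, −0.049 to 0.30). Control 3 reached the knockout level in Itgav. The log2 ratio of Itga5 to Itgb1 was −1.96, −2.15 and −1.93 for knockout and −1.92, −1.85 and −1.87 for control libraries, and the groups did not overlap, though knockout 3 and control 1 nearly met. Its group means differed by −0.13, a difference that was not tested. The ratio of Itgav to Itgb1 overlapped, at −2.77, −2.92 and −2.83 for knockout and −3.00, −2.79 and −2.70 for control libraries.

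Of the 4 other beta partners of Itgav 1 had a negative and 3 a positive log2 fold change. Itgb3, a chain of platelets, osteoclasts and activated vessels, stood at 41.9, 27.4 and 30.1 CPM in control 1 to 3 and 34.9, 24.4 and 25.4 CPM in knockout 1 to 3 (−0.23, −0.72 to 0.25), with library 1 the highest in both groups, and −0.029 on the log2 scale without control 1. Itgb5 stood at 155, 165 and 152 and 139.6, 149 and 159 CPM in knockout and control (0.075, −0.092 to 0.24). Itgb6, which activates TGF-beta in epithelia, had a log2 fold change of 0.29 (−0.27 to 0.84), a value that rests on knockout 2, the highest library at 8.38 CPM, and was −0.00031 without it. Itgb8 stood at 0.015 (−0.66 to 0.69) on that scale, from 1.04 to 1.68 CPM per library. Itga8, found on smooth muscle and fibroblasts, stood at 20.9, 23.5 and 21.8 CPM across knockout libraries 1 to 3, against 20.3, 18.2 and 20.5 CPM across the controls, and its groups did not overlap by a margin of 0.391 CPM (0.17, −0.045 to 0.38, edgeR adjusted p = 0.726). Itga2b, the platelet fibrinogen receptor chain, stood at 6.03, 6.20 and 4.32 CPM (knockout) and 7.15, 5.60 and 6.47 CPM (control) (−0.22, −0.65 to 0.21).

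Itga4 and Itga9 encode closely related alpha chains that bind vascular cell adhesion molecule, fibronectin variants and osteopontin, and Itga9 also serves lymphatic valves. Itga4 stood at 55.7, 46.1 and 40.3 CPM in control 1 to 3 and 53.1, 57.9 and 60.3 CPM in knockout 1 to 3. Control 1 lay within the knockout range, and the log2 fold change was 0.27 (95% interval −0.015 to 0.56, edgeR adjusted p = 0.685), or 0.45 without knockout 1 and control 1. Part of the Itga4 exons lies opposite exons of Cerkl, which stood at 5.73 ± 0.667 CPM (knockout) and 3.39 ± 1.16 CPM (control) (SD, n = 3 each). Itga9 stood at 64.9, 59.0 and 70.2 CPM across knockout libraries 1 to 3, against 70.2, 58.9 and 60.6 CPM across the controls, a log2 fold change of 0.032 (−0.19 to 0.26).

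Of 6 tested genes of leukocyte integrins, 1 had an unadjusted p under 0.05, higher, and 0 were called. Itgam (gene 16409, chr7:128062640-128118491) stood at 16.9, 13.7 and 16.5 CPM (knockout) and 12.3, 11.0 and 9.81 CPM (control). All knockout libraries were above all control libraries. Its log2 fold change was 0.51 (SE 0.13, 95% interval 0.21 to 0.81, edgeR unadjusted p = 0.00500, adjusted p = 0.323) and ran from 0.37 to 0.60 over 17 alternatives. Its obligate partner Itgb2, the common beta chain of leukocytes, stood at 4.83, 3.22 and 3.65 CPM in control 1 to 3 and 3.76, 4.02 and 4.66 CPM in knockout 1 to 3 and overlapped (0.088, −0.38 to 0.56). Itgal, the lymphocyte chain that binds intercellular adhesion molecules, stood at 4.90, 4.71 and 4.47 and 6.17, 5.05 and 4.20 CPM (−0.13, −0.54 to 0.28). Whether Itgam differs from these chains was not tested. Itgb7, the gut homing and mast cell chain, stood at 4.74, 5.26 and 5.74 and 6.46, 4.90 and 3.65 CPM (0.068, −0.45 to 0.59). Itgax of dendritic cells was read 3, 4 and 15 times in knockout and 12.9, 7.87 and 14 times in control, and Itgae of epidermal T cells 15, 7 and 9 against 7, 15 and 17. Their intervals, −2.06 to 0.76 and −1.39 to 0.78, were too wide to show a difference at this depth.

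Markers of 3 leukocyte groups are set beside Itgam. Over all genes tested, 4.08% were higher and 3.35% lower at an unadjusted p under 0.05, and DESeq2 called 210 of 15035. All 7 macrophage genes had a positive log2 fold change, 2 with an unadjusted p under 0.05 (Cd68 at 0.66 and Mrc1 at 0.40) and 0 called by edgeR or DESeq2, and their summed level was 427 to 493 CPM over the knockout libraries, above 299.6 to 410.1 CPM over the controls. The 6 general leukocyte genes all had a negative one, 0 with an unadjusted p under 0.05, at 171 to 208 and 182 to 242 CPM. Mast cell markers, 7 of 7 negative, 6 with an unadjusted p under 0.05, 0 called by edgeR and 4 by DESeq2, summed to 1852 to 1911 and 2667 to 3695 CPM. No marker of the 3 lists was at 0 in all libraries, and their part in the Itgam values was not tested.

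Partners of integrins and laminins were counted from 4 lists made by function. Among 18 tested ligands of the RGD, Itga4 and Itga9 integrins 1 was called. Spp1, which encodes osteopontin, rose from 0.937, 0.594 and 1.18 CPM in control to 5.0, 6.05 and 8.98 CPM in knockout libraries (log2 fold change 2.87, SE 0.33, edgeR adjusted p = 0.0342). This call held in 10 of 17 alternatives, with log2 fold changes of 2.60 to 3.11 and adjusted p-values up to 0.203, and was lost in limma-voom, beside the posterior Hox score and without knockout 2, knockout 3 or any 1 of the controls. DESeq2 called Spp1, Svep1 and Madcam1 (210 of the 15035 genes over the whole table), and limma-voom 0 ligands (15 over the whole table). An unadjusted p under 0.05 was reached by 3 ligands higher and 1 lower, beside 4.08% and 3.35% of all genes. The others were Svep1, a matrix ligand of the Itga9 receptor (0.96, edgeR adjusted p = 0.168), Thbs1 of thrombospondin (0.37, adjusted p = 0.668) and, lower, the addressin gene Madcam1, a ligand of the Itga4 and Itgb7 pair (−1.74, adjusted p = 0.109). The list had a median log2 fold change of 0.12, beside 0.0038 over all genes.

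Of 15 tested basement membrane partners none was called by edgeR. At an unadjusted p under 0.05, 2 were higher and 1 lower, beside 4.08% and 3.35% of all genes. DESeq2 called these 3 partners, and 210 of the 15035 genes tested. Col4a1 and Col4a2, the common network collagen chains, stood at 1627 ± 241 CPM (knockout) and 1173 ± 68.6 CPM (control) and at 897 ± 129 CPM (knockout) and 624 ± 50.8 CPM (control) (SD, n = 3 each), with log2 fold changes of 0.47 and 0.52 (edgeR adjusted p = 0.328 and 0.258). Col15a1, a collagen at the outer face of the membrane, was lower at −0.64 (edgeR adjusted p = 0.156). The nidogen genes that link laminin to collagen, Nid1 and Nid2, stood at −0.023 and −0.027, and Hspg2 of perlecan at −0.079. The 3 collagen genes were separated between the groups, whereas Nid1, Nid2 and Hspg2 overlapped.

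The 10 genes of hemidesmosomes and epidermal anchoring gave 0 calls in edgeR, DESeq2 and limma-voom and 0 unadjusted p under 0.05, with log2 fold changes from −0.13 (Frem2) to 0.100 (Col7a1, the anchoring fibril collagen). Of 24 focal adhesion adaptors and kinases, which couple integrin tails to actin, 0 were called by any of the 3 tools. At an unadjusted p under 0.05, 2 were higher and 1 lower, where 4.08% of all genes were higher and 3.35% lower. Tns3 and Vcl (vinculin) were higher at 0.25 and 0.24, and Parvg, a leukocyte parvin, lower at −0.65 (edgeR adjusted p = 0.453, 0.489 and 0.597).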

How the data were processed

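Polyadenylated RNA of frozen whole skin was measured in 3 knockout and 3 control samples. Values deposited by the authors are estimated counts per gene and library (expected counts, not normalized), per the file headers, and 31.0 to 31.9% of the values of a library differed from a whole number by over 0.001. The submitters' processing notes list RSEM 1.2.12, Bowtie2 2.2.5, HISAT2 2.0.4 and the build GRCm38.p6 without roles. Such counts divide reads between similar genes by a model, so the neighbours Itgam, Itgax and Itgad are less certain one by one.

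Counts were rounded, filtered with filterByExpr (minimum count 10), scaled by TMM and fitted over all genes in edgeR 4.0.16 (R 4.3.3, quasi-likelihood F test, robust), with Benjamini-Hochberg adjustment. DESeq2 1.42.0 and limma 3.58.1 were alternatives. SE is the absolute log2 fold change divided by the square root of F. The 95% intervals use the t distribution with the total degrees of freedom of the fit, residual plus prior. The test was checked on simulated data, with changes set in genes above a minimum of expected reads. It recovered 43.3% of 1.5-fold, 85.1% of 2-fold and 95.5% of 3-fold changes (67, 67 and 66 genes changed), so many changes near 1.5-fold would be missed. These rates need not hold for genes under that minimum or where fewer genes change. Library totals of 19826856 to 20591164 reads limit precision for genes with few reads, and PCR reads without molecular identifiers are not independent molecules. Groups came from the sample titles. Members, lists and alternatives were chosen with earlier results of these data known. Of the tested laminin genes 1 enters the counts and medians and is not reported here on its own. Text names the other members, and from each list the called genes and up to 3 with the smallest p. The nidogens, perlecan, the 2 hemidesmosome genes at the ends of the range, Cebpa and Fabp4 were added after their values were seen. Coordinates are 1-based. Exon lengths are from GENCODE M21 (GRCm38).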

Additional observations from a re-analysis of the deposited data

How the results depend on the processing

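The labels do not say that a replicate number is shared between the groups, and the main fit used no pairing. Deviations from the group means of same-numbered libraries 1, 2 and 3 correlated at 0.411, 0.0431 and 0.266. Knockout 1 and knockout 3 correlated best with the control of the same number, and knockout 2 better with control 3 (0.185) than with control 2. Whether same-numbered libraries share a litter or batch was not tested. With the replicate number as a block, 52 genes were called over the whole table in place of 24, none of them a member, and 5 integrin and 2 laminin genes had an unadjusted p under 0.05 (Lama4 higher, Lamc3 lower) in place of 3 and 0. Itga1, Itga11 and Itgam kept a positive log2 fold change under each of the 17 alternatives. Itga1 was the 1 called integrin gene with DESeq2 and again without knockout 1 and control 1 together, and no laminin gene was called under any alternative. Integrin genes with an unadjusted p under 0.05 numbered 5 with the hair follicle score as covariate and 6 without knockout 1 and control 1, and 2 with DESeq2, with the posterior Hox score and without knockout 2. Itga11 was not among them in 7 alternatives and Itgam not with the posterior Hox score. Laminin genes with one numbered 1 with the posterior Hox score (Lamb2), with the Y-linked score (Lama1) and without knockout 1 and control 1 (Lama4). With 1 library left out, 0 to 1 laminin genes had one. Called genes over the whole table numbered 38 with no filter, 210 with DESeq2, 15 with limma-voom, 115 with the hair follicle score, 5 with the posterior Hox score, 139 without knockout 1 and control 1, and 1 to 11 with 1 library left out. The cause of these shifts was not tested. The share of all genes with an unadjusted p under 0.05 was counted in the main fit only. For the alternatives, shifts in the member counts thus cannot be told apart from shifts over the whole table. Members and partners that changed sign were not called in any of these fits. With no filter the log2 fold change was −0.0011 for Itga10 and −0.0054 for Itga5. With the hair follicle score the log2 fold change was 0.041 for Itgb4 and 0.0091 for Lamb1. With the posterior Hox score the log2 fold change was −0.0076 for Itga4, −0.091 for Itga9, −0.012 for Itga2, −0.015 for Itga7, 0.44 for Itgb4, 0.67 for Itgae, −0.19 for Itgb2, −0.39 for Itgb7, −0.027 for Itga5, −0.42 for Itgb8, 0.088 for Lamb1, 0.54 for Lamc3, 0.036 for Hspg2 and 0.30 for Frem2. With the Y-linked score the log2 fold change was −0.031 for Itga10, −0.042 for Itga6, −0.012 for Itga5, −0.053 for Lama2, −0.16 for Lama5, −0.12 for Lama3, −0.18 for Lamb3 and 0.015 for Nid2. Without knockout 1 and control 1 the log2 fold change was −0.083 for Itga10, −0.032 for Lama5 and −0.0016 for Lama3. With each library left out in turn the range was −0.075 to 0.10 for Itga10, −0.31 to 0.072 for Itgb4, −0.11 to 0.072 for Lamb1, −0.53 to 0.15 for Lamc3, −0.37 to 0.089 for Frem2, −0.072 to 0.13 for Itga6, −0.00031 to 0.46 for Itgb6, −0.17 to 0.18 for Itgb8, −0.20 to 0.19 for Lama5, −0.19 to 0.25 for Lama3, −0.20 to 0.26 for Lamb3, −0.14 to 0.034 for Nid1, −0.15 to 0.075 for Nid2, −0.030 to 0.11 for Itga9, −0.041 to 0.27 for Itgb2, −0.12 to 0.29 for Itgb7, −0.034 to 0.022 for Itga5, −0.032 to 0.20 for Lama2, −0.022 to 0.13 for Lamc1, −0.26 to 0.020 for Itgal and −0.069 to 0.21 for Col7a1. Depth limits Itgae and Itgax (7 to 17 and 3 to 15 reads per library) and Lama1.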

Other observations

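Ppbp, the platelet basic protein gene, stood at 1.29, 95.6 and 2.40 CPM across knockout libraries 1 to 3, against 1.09, 1.14 and 0.889 CPM across the controls, so 1 library, knockout 2, held 1929 reads where the other 5 held 18 to 49. Pf4, another platelet granule gene, stood at 65.6, 53.6 and 57.6 CPM (knockout) and 52.6, 43.8 and 44.7 CPM (control), and the platelet receptor gene Gp1bb at 1.96, 1.82 and 1.54 CPM in control 1 to 3 and 3.90, 2.63 and 1.82 CPM in knockout 1 to 3. The platelet integrin chains Itga2b and Itgb3 showed no such excess in knockout 2, at 6.20 and 24.4 CPM. Whether Ppbp reads in that library come from platelets was not tested.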
